A study of Mus musculus with 32 samples.

Results

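Here 10 integrin genes were followed in microglia of the rTg4510 tauopathy mouse and its wild type littermates, namely Itgax, Itgam, Itgb2, Itgal, Itgav, Itgb5, Itgb1, Itga4, Itga6 and Itga9. They were taken by name from the deposited expression table, and all 10 of the 10 listed genes were among its 18588 genes. Forebrain cells of female mice had been captured with beads against CD11b, the protein product of Itgam, and their RNA had been sequenced at 2, 4, 6 and 8 months of age. In rTg4510 mice a transgene for mutant human tau under a tetracycline-responsive element is switched on after birth in forebrain neurons by a second transgene, a tetracycline transactivator (tTA) driven by the CaMKIIα promoter. The WT littermates carried neither transgene, so no group carried tTA alone. The labels give the strain of WT as 129/FVB F1 and that of the transgenic mice as rTg4510. Each library was made from the pooled forebrains of 8 to 10 animals, so differences between libraries are differences between pools. Each genotype had 4 libraries at ages 2 and 6 months, and only 3 at ages 4 and 8 months, which makes 28. A further 4 libraries (replicate 3 of both genotypes at 4 months and replicate 4 of both at 8 months) failed the quality control of the study. They entered no comparison below except the fits said to use all 32 libraries.

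Integrins are cell surface receptors made of one α and one β subunit, which bind extracellular matrix, complement fragments or proteins on other cells and link them to the actin cytoskeleton. Microglia, the resident macrophages of the brain, carry above all the β2 integrins, in which Itgb2 (CD18) pairs with Itgam (CD11b, complement receptor 3), Itgax (CD11c, complement receptor 4), Itgal (CD11a) or Itgad (CD11d). Itgav with Itgb5 forms a vitronectin receptor used in the uptake of dying cells, and Itgb1 pairs with Itga4, Itga6 or Itga9 into receptors for fibronectin and VCAM1, for laminins, and for tenascin and osteopontin.

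The measure was RNA sequencing signal per gene, and the deposited table holds no counts, so the depth behind a value is unknown. Values are log2 gene signals, scaled by the authors so that every library had the same median of 5.63. They are not corrected for transcript length, so levels are compared between libraries for 1 gene and never between genes. A gene is called changed where limma gave a Benjamini-Hochberg adjusted p (false discovery rate, FDR) under 0.05 over all 18588 genes together with a change of more than 1.5-fold. A value within 1.58 log2 units of the lowest value of its library is called near the floor, and where all libraries of a group were near it the fold is given as a lower bound. RNA of pooled cells cannot tell fewer cells of a type from less RNA per cell. Itgam was also the gene of the capture, so cells with little CD11b protein could be missing from every library.

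Itgax rose at all 4 ages, Itga9 fell at 4, 6 and 8 months and Itgam fell at 6 months, while the other 7 members were not called between genotypes at any age. Taking the ages in turn, 1, 1, 1 and 1 of the 10 members were called higher and 0, 1, 2 and 1 lower. Of all genes 1.98%, 13.8%, 19.8% and 15.9% were called at 2, 4, 6 and 8 months, split into 1.58%, 9.47%, 11.3% and 10.5% higher and 0.403%, 4.33%, 8.54% and 5.37% lower. By FDR alone the members were 2, 5, 7 and 5 of 10, beside 6.03%, 23.2%, 34.1% and 25.7% of all genes. The libraries of the 2 genotypes did not overlap for 2, 5, 6 and 5 of the 10 members, beside 11%, 36.6%, 32.8% and 36.7% of all genes. The median log2 fold change over the 10 members was -0.02, 0.05, 0.13 and 0.11, and over all genes 0.01, -0.04, -0.04 and -0.01.

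**Figure D1:**
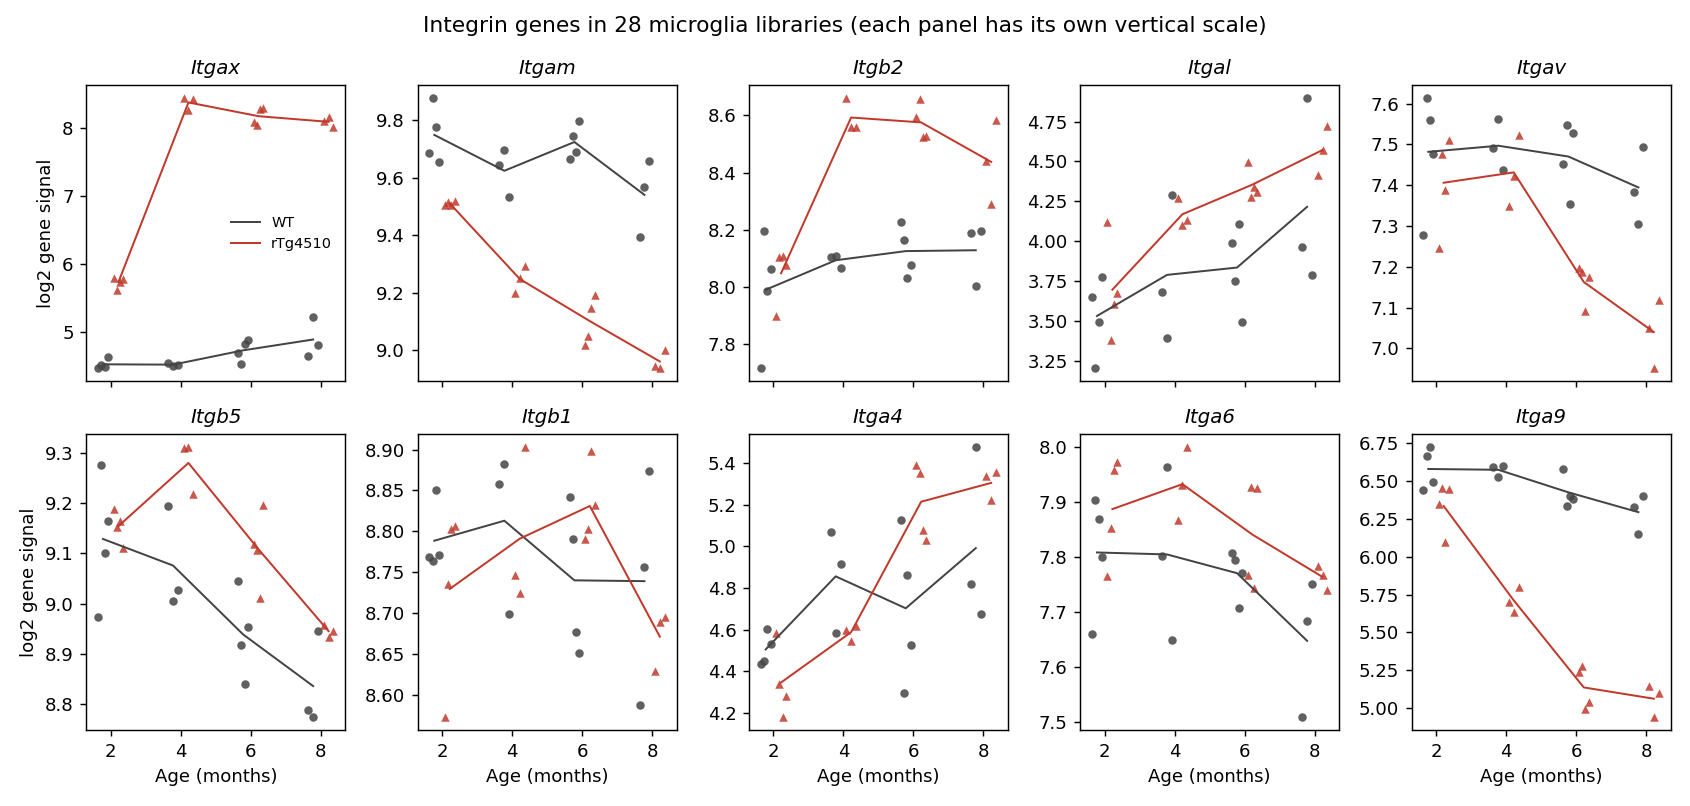
Log2 gene signal (vertical axis, own scale in each panel) against age in months for the 10 integrin genes; circles are WT libraries, triangles rTg4510 libraries and lines join group means, and points are shifted sideways for visibility. Itgax stands apart between genotypes at every age. Itgam lies lower in the rTg4510 libraries with no overlap at every age, and Itga9 does so from 4 months on. Itgb1 and Itga6 overlap at every age.

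Itgax, the α subunit of complement receptor 4 and a marker used for dendritic cells and for responding microglia, had the largest genotype effect of the 10 members at every age. In WT its log2 signal was 4.47, 4.52, 4.49 and 4.63 at 2 months, 4.54, 4.51 and 4.52 at 4 months, 4.69, 4.54, 4.83 and 4.88 at 6 months, and 4.64, 5.22 and 4.81 at 8 months. The rTg4510 libraries had 5.79, 5.62, 5.74 and 5.78 at 2 months, 8.43, 8.25 and 8.42 at 4 months, 8.09, 8.04, 8.27 and 8.28 at 6 months, and 8.09, 8.16 and 8.00 at 8 months. Every rTg4510 library of 2 months lay above every WT library of any age, and those of 4 months and later lay higher again. The difference was 2.31-fold at 2 months (log2 1.20, SE 0.09, limma FDR = 2.8e-07), 14.4-fold at 4 months (log2 3.85, SE 0.11, limma FDR = 3.59e-15), 10.8-fold at 6 months (log2 3.43, SE 0.09, limma FDR = 6.52e-16) and 9.14-fold at 8 months (log2 3.19, SE 0.11, limma FDR = 4.63e-14). Ordered by mean, the 4 WT groups came first (4.52 at 4 months to 4.89 at 8 months, each overlapping the next), then rTg4510 at 2 months (5.73) with a gap on both sides, then rTg4510 at 8, 6 and 4 months (8.08, 8.17 and 8.37). Among the last 3 groups the 6 month libraries overlapped those of both other ages, so their place is not resolved by the spread of the libraries. Every rTg4510 library of 4 months (8.25 to 8.43) lay above every one of 8 months (8.00 to 8.16).

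Itgam, whose product is the capture antigen, went down. Its WT libraries had log2 signals of 9.69, 9.88, 9.78 and 9.66 at 2 months, 9.65, 9.70 and 9.53 at 4 months, 9.67, 9.75, 9.69 and 9.80 at 6 months, and 9.39, 9.57 and 9.66 at 8 months. In rTg4510 they were 9.50, 9.52, 9.51 and 9.52 at 2 months, 9.20, 9.25 and 9.29 at 4 months, 9.02, 9.05, 9.15 and 9.19 at 6 months, and 8.94, 8.94 and 8.998 at 8 months. At each age every rTg4510 library was below every WT library, and the mean of the rTg4510 groups was lower at each later age (9.51, 9.25, 9.10 and 8.96) with no overlap between successive ages. The log2 differences were -0.24 at 2 months (SE 0.05, limma FDR = 0.00798), -0.38 at 4 months (SE 0.06, limma FDR = 9.99e-05), -0.62 at 6 months (SE 0.05, limma FDR = 8.7e-09) and -0.58 at 8 months (SE 0.06, limma FDR = 3.07e-07). The 6 month value passed the 1.5-fold limit (1.54-fold lower) and the 8 month value lay at it. With quantile normalization the 8 month difference was -0.78 and was called. The 10 microglia marker genes moved beside it, with 1, 3, 3 and 4 of the 10 called lower at 2, 4, 6 and 8 months, none called higher, and a median log2 difference of -0.22, -0.32, -0.52 and -0.53. Of all genes 0.403%, 4.33%, 8.54% and 5.37% were called lower and 1.58%, 9.47%, 11.3% and 10.5% higher, with medians of 0.01, -0.04, -0.04 and -0.01. Whether the fall of Itgam is part of the shift of the microglia markers was not tested.

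Itgb2, the β subunit shared by Itgam, Itgax, Itgal and Itgad, was modestly higher from 4 months by FDR but stayed under 1.5-fold. WT libraries had log2 signals of 7.72, 8.20, 7.99 and 8.06 at 2 months, 8.11, 8.11 and 8.07 at 4 months, 8.23, 8.17, 8.03 and 8.08 at 6 months, and 8.19, 8.00 and 8.20 at 8 months. The rTg4510 libraries had 7.90, 8.11, 8.11 and 8.08 at 2 months, 8.66, 8.56 and 8.56 at 4 months, 8.59, 8.66, 8.52 and 8.53 at 6 months, and 8.44, 8.29 and 8.58 at 8 months. The genotypes overlapped at 2 months and separated at the 3 later ages. The log2 difference was 0.06 (SE 0.08, limma FDR = 0.825), 0.50 (SE 0.09, limma FDR = 0.000379), 0.45 (SE 0.08, limma FDR = 0.000158) and 0.31 (SE 0.09, limma FDR = 0.0181) at the 4 ages. With quantile normalization the 8 month difference was 0.19 (limma FDR = 0.147).

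Itgal, the α subunit of LFA-1, had a low signal and the widest spread of the members, with a median SD within groups of 0.26 against 0.07 for Itgam. Its log2 signal was 3.20 to 3.77 in WT and 3.38 to 4.12 in rTg4510 at 2 months, and 3.40 to 4.29 against 4.10 to 4.27 at 4 months. At 6 months WT libraries had 3.99, 3.75, 4.11 and 3.49 and rTg4510 libraries 4.49, 4.28, 4.34 and 4.31, which did not overlap. At 8 months WT libraries had 3.96, 4.90 and 3.79 and rTg4510 libraries 4.42, 4.57 and 4.73. The differences of 0.17, 0.38, 0.52 and 0.36 were not called (limma FDR = 0.807, 0.312, 0.0723 and 0.338), and the 95% interval at 8 months ran from -0.17 to 0.88. The WT replicate 2 of 8 months had the highest Itgal (4.90), Itgax (5.22) and Itga4 (5.48) of all WT libraries. In the same library the summed log2 signals of the border macrophage (11.4 against 10.8 and 10.6 in the other 8 month WT libraries), dendritic cell (9.26 against 8.68 and 8.63) and T, NK and B cell lists (7.86 against 7.41 and 7.30) were also the highest of the 3. Without that library Itgal at 8 months differed by 0.70 and was called (limma FDR = 0.0339); the part of those cells in its values was not tested.

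**Figure D2:**
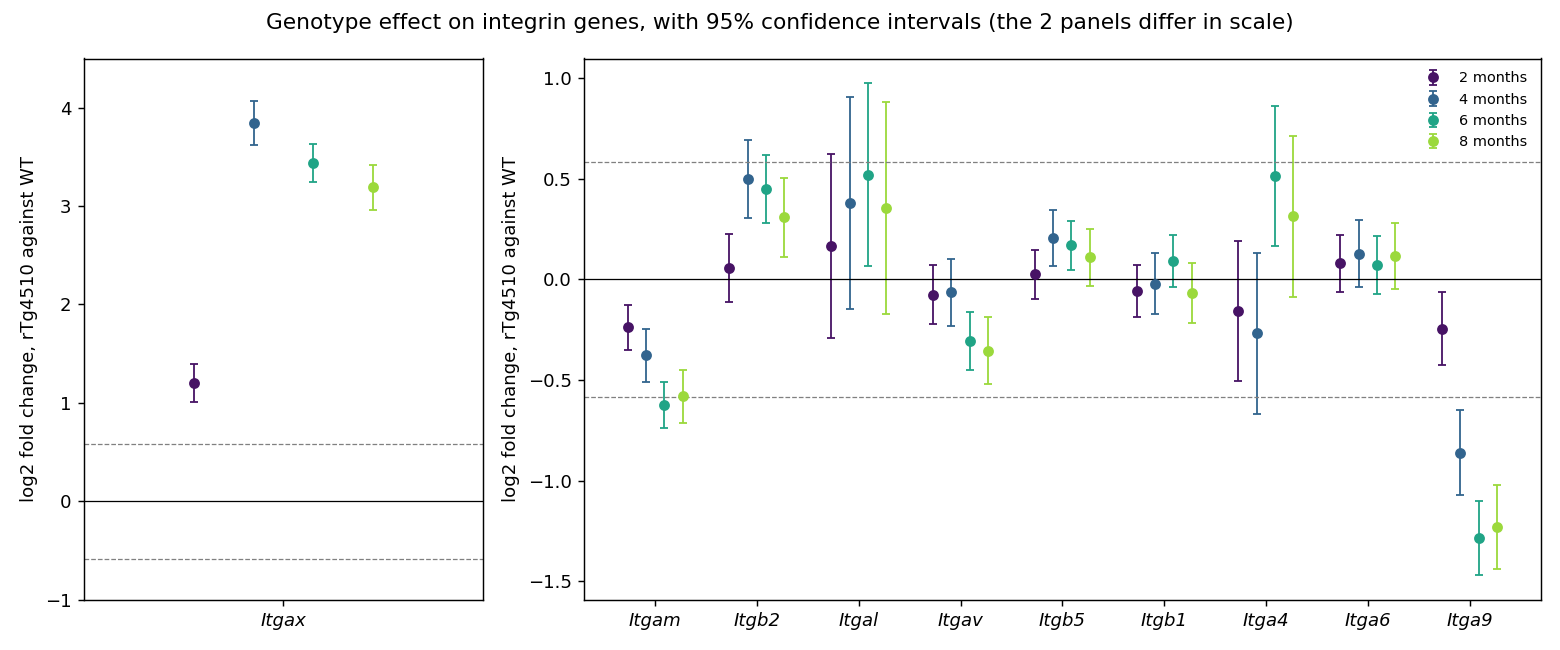
Log2 fold change of rTg4510 against WT (vertical axis) for Itgax (left) and the other 9 integrin genes (right, on its own scale) at 4 ages; points are limma estimates, bars 95% confidence intervals and dashed lines the 1.5-fold limit. Itgax lies between 1.20 and 3.85, Itga9 falls from -0.24 to -1.29 and back to -1.23, and the remaining points of the right panel lie between -0.62 and 0.52.

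Itgam, Itgax and Itgad lie side by side on chromosome 7 (RefSeq, build GRCm38.p6), and neighbours moved in opposite directions. Itgam spans chr7:128062640-128118491, Itgax chr7:128129526-128150657 and Itgad chr7:128173933-128205504, with 11034 bp between Itgam and Itgax and 23.3 kb between Itgax and Itgad. Itgal lies 728 kb before Itgam, at chr7:127296139-127335137. The other members lie elsewhere, with Itgb2 at chr10:77530329-77565708, Itgav at chr2:83722303-83806917, Itga4 at chr2:79255426-79333114, Itga6 at chr2:71786886-71858427, Itgb5 at chr16:33829665-33949338, Itgb1 at chr8:128685654-128733579 and Itga9 at chr9:118606709-118901003. Itgad rose with Itgax, with log2 signals at 4 months of 3.41, 3.10 and 2.89 in WT and 6.56, 6.02 and 6.17 in rTg4510. Its log2 difference was 0.41 at 2 months (limma FDR = 0.208) and 3.12, 2.64 and 2.43 at 4, 6 and 8 months (limma FDR = 2.37e-10, 1.18e-10 and 6.15e-09). The genotypes did not overlap for Itgad at any age. At 4 months 2 of the 3 WT libraries were near the floor for Itgad, so that fold is imprecise.Of the 13 annotated genes within 100 kb of Itgax, 10 were in the table, and those called at 1 or more ages were Itgam (1 age), Itgax (4 ages), Itgad (3 ages), Cox6a2 (3 ages) and Tgfb1i1 (1 age, lower at 8 months by 0.69 on the log2 scale). Itgax and Itgam are members, and the window was laid around Itgax. Of all genes 1.98%, 13.8%, 19.8% and 15.9% were called at 2, 4, 6 and 8 months. These shares are per age, and the share called at 1 or more ages is at least the largest of them. Cox6a2, a subunit of cytochrome c oxidase, overlaps the end of Itgad by 70 bases and rose by 2.33, 2.99 and 2.50 on the log2 scale at 4, 6 and 8 months. The library kit is not stated to keep strand, so reads of Cox6a2 and of Itgad cannot be told apart there and the Cox6a2 value is uncertain. The pseudogene Gm17831 between Itgax and Itgad was not called at any age, with differences of 0.07 to 0.31.

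**Figure D3:**
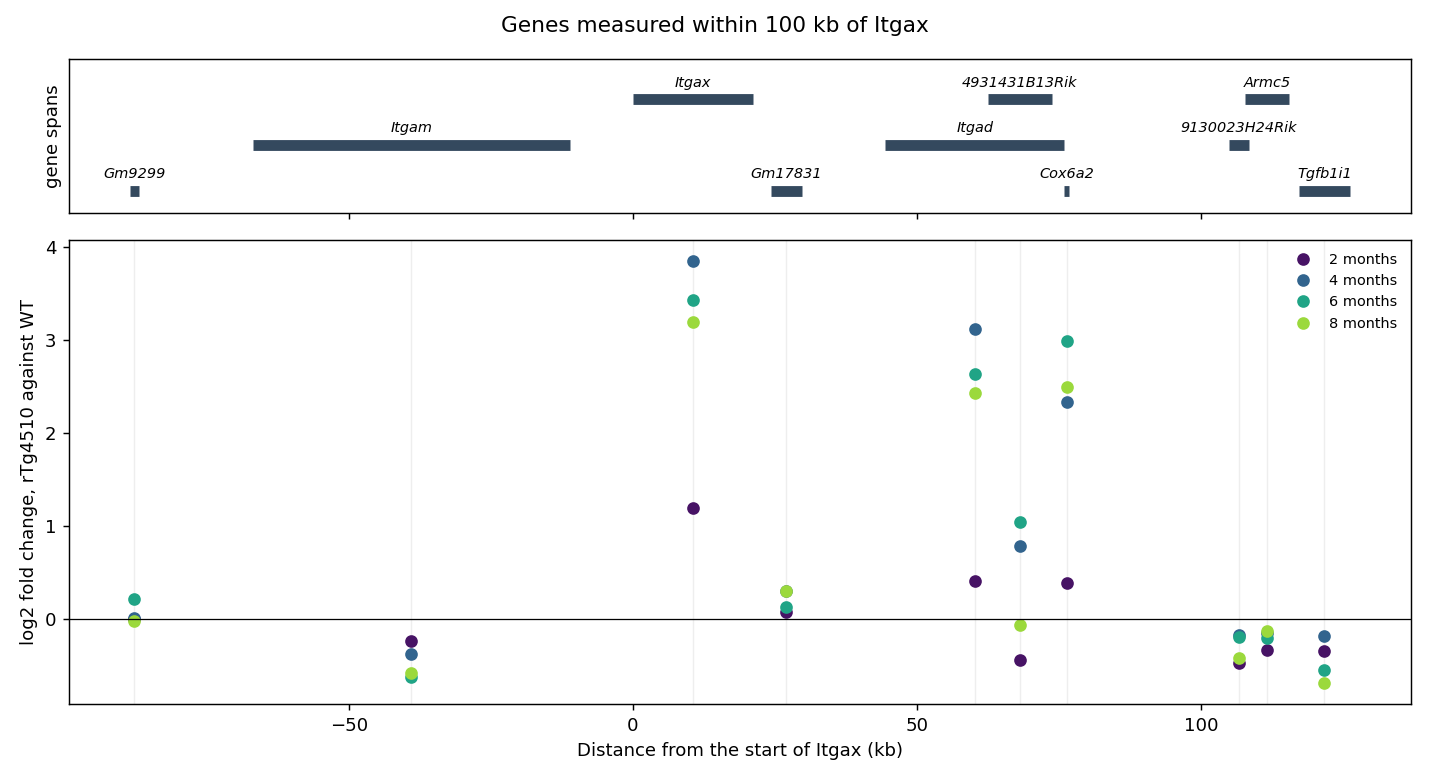
Genes measured within 100 kb of Itgax: the upper strip shows gene spans and the lower panel the log2 fold change of rTg4510 against WT at 4 ages (vertical axis) against distance from the start of Itgax in kb. Itgax, Itgad and Cox6a2 reach 3.85, 3.12 and 2.99, while Itgam lies between -0.24 and -0.62.

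The promoters of Itgax and Itgam are shown because these adjacent genes changed in opposite directions. Each is 250 bases before and 50 bases after a RefSeq transcript start (build GRCm38.p6, plus strand, the C57BL/6J reference and not the strain of these mice); Itgax is chr7:128129300-128129599 and Itgam chr7:128062390-128062689. Capitals mark the searched motifs on either strand.
Itgax: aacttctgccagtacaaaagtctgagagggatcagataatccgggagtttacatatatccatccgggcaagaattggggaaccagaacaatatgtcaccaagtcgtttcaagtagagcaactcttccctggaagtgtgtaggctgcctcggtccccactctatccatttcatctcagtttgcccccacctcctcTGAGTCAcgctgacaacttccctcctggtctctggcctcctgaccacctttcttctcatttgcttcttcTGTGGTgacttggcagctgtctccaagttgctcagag
Itgam: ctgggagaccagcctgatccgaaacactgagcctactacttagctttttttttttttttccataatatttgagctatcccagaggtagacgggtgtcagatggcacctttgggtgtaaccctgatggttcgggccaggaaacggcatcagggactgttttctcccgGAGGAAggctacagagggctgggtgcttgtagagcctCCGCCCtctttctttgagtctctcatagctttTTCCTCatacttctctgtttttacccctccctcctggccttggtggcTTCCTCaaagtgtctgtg
Searched on both strands were GAGGAA (PU.1 and other ETS factors), TGTGGT (RUNX), TTGCNNAA (C/EBP), CACGTG (the E-box of MiT/TFE factors), TGANTCA (AP-1) and GGGCGG (the GC box of Sp1). The Itgax window held AP-1 at -56 to -50 and RUNX at 14 to 19 from the start, and the Itgam window held 3 ETS matches and 1 GC box. Of 32851 mouse promoters of this length 28.3% held GAGGAA, 16.8% TGTGGT, 10.8% TTGCNNAA, 7.15% CACGTG, 7.81% TGANTCA and 35.7% GGGCGG. AP-1 letters were also in the window of Itga9, 1 of the 7 members with a promoter in the table and a gene that fell. That window (chr9:118711442-118711741) is at a transcript start inside the Itga9 span, which begins at 118606709. The matches describe the letters in these windows only.

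Itgav, the αv subunit, was lower in rTg4510 at 6 and 8 months by FDR, under 1.5-fold. Its log2 signals at 6 months were 7.45, 7.55, 7.35 and 7.53 in WT and 7.20, 7.19, 7.09 and 7.18 in rTg4510. At 8 months they were 7.38, 7.31 and 7.50 in WT and 7.05, 6.95 and 7.12 in rTg4510. The genotypes did not overlap at these 2 ages, with log2 differences of -0.31 (SE 0.07, limma FDR = 0.00151) and -0.35 (SE 0.08, limma FDR = 0.00198). At 2 and 4 months they overlapped, with differences of -0.08 and -0.07 (limma FDR = 0.685 and 0.62). Itgb5, its β partner in the vitronectin receptor, lay between 8.78 and 9.31 in all 28 libraries. At 4 months it was 9.20, 9.01 and 9.03 in WT and 9.31, 9.31 and 9.22 in rTg4510, and the genotypes just did not overlap. The log2 difference of Itgb5 was 0.20 at 4 months (SE 0.07, limma FDR = 0.0314) and 0.17 at 6 months (SE 0.06, limma FDR = 0.0285), but with quantile normalization it was 0.03 and -0.01. The Itgb5 differences at 4 and 6 months therefore depended on the scaling.

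Itga9, an α partner of Itgb1 that binds tenascin and osteopontin, had the largest decrease of the members. Its WT libraries had log2 signals of 6.44, 6.66, 6.72 and 6.49 at 2 months, 6.59, 6.53 and 6.60 at 4 months, 6.58, 6.33, 6.40 and 6.38 at 6 months, and 6.33, 6.15 and 6.40 at 8 months. In rTg4510 they were 6.35, 6.45, 6.10 and 6.44 at 2 months, 5.70, 5.64 and 5.80 at 4 months, 5.24, 5.28, 4.99 and 5.04 at 6 months, and 5.15, 4.94 and 5.10 at 8 months. The genotypes overlapped at 2 months and were far apart from 4 months on. The log2 difference was -0.24 at 2 months (SE 0.09, limma FDR = 0.124), -0.86 at 4 months (SE 0.10, limma FDR = 1.28e-06), -1.29 at 6 months (SE 0.09, limma FDR = 2.78e-10) and -1.23 at 8 months (SE 0.10, limma FDR = 9.13e-09), or 1.82-, 2.44- and 2.35-fold lower at the last 3 ages.

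Itga4, the α4 subunit of VLA-4, did not keep 1 direction. Its log2 signals at 4 months were 5.07, 4.58 and 4.92 in WT and 4.60, 4.54 and 4.62 in rTg4510. At 6 months they were 5.13, 4.30, 4.86 and 4.53 in WT and 5.39, 5.35, 5.08 and 5.03 in rTg4510. At 8 months WT had 4.82, 5.48 and 4.68 and rTg4510 5.34, 5.22 and 5.36. The genotypes overlapped at every age, since a WT library reached the rTg4510 range at 6 and at 8 months. The log2 difference was -0.16, -0.27, 0.51 and 0.31 at 2, 4, 6 and 8 months, and only that at 6 months had an FDR under 0.05 (SE 0.17, limma FDR = 0.0214). Without WT replicate 1 of 6 months the difference was 0.65 and Itga4 was called.

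Itgb1, the common β1 subunit, and Itga6, the laminin receptor subunit, did not differ detectably between genotypes. Itgb1 lay between 8.57 and 8.90 in all 28 libraries, and its log2 differences were -0.06, -0.02, 0.09 and -0.07 with 95% intervals that reached at most -0.22 on the low side and 0.22 on the high side. Itga6 lay between 7.51 and 8.00, and its differences of 0.08, 0.13, 0.07 and 0.12 had intervals reaching from -0.07 to 0.29. Effects of 1.5-fold (0.585 on the log2 scale) lie outside these intervals at all 4 ages. The β1 subunit thus stayed within a narrow range while its partner Itga9 fell.

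The calls for a change of the genotype effect with age fell between 2 and 4 months, for Itgax and Itga9. From 2 to 4 months the effect on Itgax grew by 2.64 on the log2 scale (SE 0.15, limma FDR = 9.75e-10) and that on Itga9 changed by -0.62 (SE 0.13, limma FDR = 0.00631), so 2 of the 10 members were called, beside 4.66% of all genes. The effect on Itgb2 grew by 0.44 over the same step (SE 0.12, limma FDR = 0.0331), under 1.5-fold. The Itga9 value lay close to the limit, and the call was lost with quantile normalization, with an offset added to the linear signals (the linear offset below), with all 32 libraries and without any 1 of 4 libraries (rTg4510 replicates 2 and 4 and WT replicate 1 of 2 months, and rTg4510 replicate 2 of 4 months). From 4 to 6 months limma called 0 of the 10 members, beside 0.156% of all genes, and 5 members had an unadjusted p under 0.05, beside 8.15% of all genes. These 5 were Itga9 (-0.43), Itga4 (0.78), Itgam (-0.25), Itgav (-0.24) and Itgax (-0.41), with limma FDR of 0.305 to 0.556. From 6 to 8 months limma called 0 members and 0% of all genes, and 0 members and 4.52% of all genes had an unadjusted p under 0.05. With moderated variances in limma 0 members were called at either step.

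With age, from 2 to 8 months, Itgax, Itgal and Itga4 rose and Itga9 fell in rTg4510, and no member was called in WT. In WT limma called 0 of 10 members, beside 1.27% of all genes, and also 0 with moderated variances, while 7 members and 19.2% of all genes had an unadjusted p under 0.05. By FDR alone 3 did, beside 4.21% of all genes, namely Itgax (0.36, FDR = 0.0481), Itgam (-0.21, FDR = 0.0471) and Itgb5 (-0.29, FDR = 0.0124). Leaving out WT replicate 3 of 8 months gave 1 call. In rTg4510 4 of 10 were called, beside 10.5% of all genes. Itgax (2.35, limma FDR = 2.42e-12), Itgal (0.88, limma FDR = 0.01) and Itga4 (0.96, limma FDR = 0.000482) were higher at 8 months, and Itga9 (-1.27, limma FDR = 4.55e-09) was lower. By FDR alone 8 of 10 passed, beside 21.7% of all genes, and Itgb1 and Itga6 were the other two, with differences of -0.06 and -0.12. The summed log2 signal of the dendritic cell markers, cells that carry Itgax, was also higher at 8 months with no overlap in rTg4510 (8.01 to 8.17 at 2 months, 8.41 to 8.83 at 8 months) and narrowly in WT (8.375 to 8.625, 8.632 to 9.264). The T, NK and B cell list ran in rTg4510 from 6.88 to 7.37 at 2 months and 7.21 to 7.96 at 8 months, and the monocyte list from 7.27 to 7.94 and 7.78 to 8.39, both overlapping. The part of these cells in the values of Itgax, Itgal and Itga4 was not tested. Since all libraries of an age may share its handling, age and handling cannot be told apart in these within-genotype values. Itgal and Itga4 also differed in WT between 2 and 8 months by 0.68 and 0.49, with limma FDR of 0.107 and 0.134. A difference between genotypes in the change from 2 to 8 months was not tested.

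Over the 28 libraries, the genes whose log2 signal was most like that of Itgax were Cd63-ps (Pearson r = 0.99), Ctse (0.99), Cadm1 (0.99), Axl (0.99) and Cst7 (0.99), among 17700 genes with at least 1 group mean above 4. Ctse encodes cathepsin E, Axl a receptor for apoptotic cells and Cst7 cystatin F, an inhibitor of cysteine proteases, and Cadm1 an adhesion molecule. Cd63-ps is a pseudogene that may share reads with Cd63, so its value is uncertain. The lowest r were those of Fry (-0.97), Mtss1 (-0.97) and Chd9 (-0.97). Among integrins Itgad (0.98) and Itgb2 (0.86) followed Itgax, Itga9 (-0.92) and Itgam (-0.91) ran against it, and Itgal (0.64), Itga4 (0.42), Itgb5 (0.31), Itga6 (0.31), Itgb1 (0.02) and Itgav (-0.67) lay between. Over the genes compared the median r was -0.07, with the 5 and 95 percentiles at -0.79 and 0.91, and these libraries share genotype and age, so the r describe the same contrasts as above.

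Of the 17 other integrin genes 13 were in the table, and 5 were called at 1 or more ages. At 2, 4, 6 and 8 months 0, 3, 3 and 3 of the 13 were called higher and 1, 2, 1 and 2 lower, beside 1.98%, 13.8%, 19.8% and 15.9% of all genes called in either direction. The median log2 differences of these 13 genes were -0.01, -0.12, -0.06 and -0.03, against 0.01, -0.04, -0.04 and -0.01 over all genes. Itga5, the fibronectin receptor subunit that pairs with Itgb1, had at 6 months log2 signals of 4.45, 4.40, 4.34 and 4.39 in WT and 5.76, 5.74, 5.84 and 5.79 in rTg4510. It differed by 0.10 at 2 months and rose by 1.30, 1.39 and 1.48 at 4, 6 and 8 months (limma FDR = 4.67e-09, 9.21e-11 and 6.42e-10), with no overlap at these 3 ages. Itgb8, whose dimer with αv binds latent TGFβ, had log2 signals of 3.64, 2.61, 2.34 and 2.73 in WT and 5.16, 5.14, 5.54 and 5.34 in rTg4510 at 6 months, a difference of 2.47 (limma FDR = 4.31e-06). At 4 months all 3 WT libraries of Itgb8 were near the floor, so the change there is at least 2.13-fold higher. At 6 months 3 of the 4 WT libraries were in that range as well.

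The α subunit Itgae and the β subunit Itgb7, which form a receptor for E-cadherin on lymphocytes and dendritic cells, went down. Itgae had log2 signals of 4.15, 4.62, 4.21 and 4.41 in WT and 3.60, 3.69, 3.78 and 3.66 in rTg4510 at 2 months, already with no overlap. It fell by 0.67, 1.23 and 1.44 on the log2 scale at 2, 4 and 6 months (limma FDR = 0.0126, 2.97e-05 and 3.31e-07), and at 8 months, where all 3 rTg4510 libraries were near the floor, it was at least 1.82-fold lower. For Itgae 2 of 3 rTg4510 libraries were near the floor at 4 months and 3 of 4 at 6 months, and with the linear offset its differences at these ages were -0.70 and -0.85. The 2 month call of Itgae was lost with all 32 libraries (limma FDR = 0.0664) and with the linear offset (-0.45). Itgb7 fell by 0.62 at 4 months (limma FDR = 0.0441) and by 0.93 at 8 months (limma FDR = 0.00262), but the 4 month call was lost with quantile normalization, with the linear offset and with a replicate block. Of the 7 dendritic cell markers 0, 2, 1 and 2 were called lower at 2, 4, 6 and 8 months and none higher. Their median log2 differences were -0.28, -0.54, 0.07 and 0.16. Of the 9 T, NK and B cell markers 0, 2, 1 and 0 were called lower and 1 higher at each age. The medians of that list were -0.41, -0.74, -0.88 and -0.33. Of all genes 0.403%, 4.33%, 8.54% and 5.37% were called lower and 1.58%, 9.47%, 11.3% and 10.5% higher. The part of these cells in the values of Itgae and Itgb7 was not tested.

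Another list held genes that activate integrins or tie them to actin, and of its 38 measured genes 1, 3, 3 and 3 were called higher and 1, 1, 2 and 2 lower at 2, 4, 6 and 8 months. Of all genes 1.58%, 9.47%, 11.3% and 10.5% were called higher and 0.403%, 4.33%, 8.54% and 5.37% lower. The list's median log2 differences were 0.06, 0.06, 0.04 and 0.03, against 0.01, -0.04, -0.04 and -0.01 over all genes. At 6 months Parvb (a parvin that binds integrin-linked kinase, 1.18), Adap1 (1.18) and Flna (filamin A, 0.61) were called higher. Adap1 encodes an ArfGAP and not the integrin adaptor of similar name, so its place in the list is doubtful. Actn1 (α-actinin, -1.07) and Cib1 (-0.63) were called lower, and Cib1 was lost with all 32 libraries (limma FDR = 0.0575) and with the linear offset (-0.53). The Flna value passed 1.5-fold narrowly and missed it with quantile normalization (0.57) and with the linear offset (0.57).

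Of 31 measured ligand genes 2, 4, 7 and 9 were called higher and 0, 2, 3 and 1 lower at the 4 ages. Calls over all genes were also more often higher than lower, with 1.58%, 9.47%, 11.3% and 10.5% of genes higher and 0.403%, 4.33%, 8.54% and 5.37% lower. The ligands' median log2 differences were -0.02, -0.21, -0.16 and -0.05, against 0.01, -0.04, -0.04 and -0.01 over all genes. Spp1 (osteopontin, a ligand of αv, α4 and α9 integrins) had log2 signals of 3.75 to 4.47 in WT and 7.87 to 8.01 in rTg4510 at 6 months. Its log2 difference was 1.86, 4.51, 3.68 and 3.82 at the 4 ages (limma FDR = 2.61e-06, 2.98e-12, 3.29e-12 and 3.62e-11). C3, the source of the complement fragment bound by Itgam and Itgax dimers, rose by 1.44, 1.58 and 2.00 at 4, 6 and 8 months (limma FDR = 3.08e-07, 4.92e-09 and 3.48e-09). At 6 months Npnt (nephronectin) rose by 1.21 and Fn1 (fibronectin) by 1.13, and Icam4, with all 4 WT libraries near the floor, was at least 1.95-fold higher. Jam3 (-1.24), Vtn (vitronectin, -1.02) and Ager (-0.74) were called lower. The Vtn call was lost with quantile normalization (limma FDR = 0.0842), with all 32 libraries (limma FDR = 0.0804) and with the linear offset (limma FDR = 0.0553). The Ager call was lost with quantile normalization (limma FDR = 0.166), with the linear offset (-0.45) and with the replicate block (limma FDR = 0.0596).

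**Figure D4:**
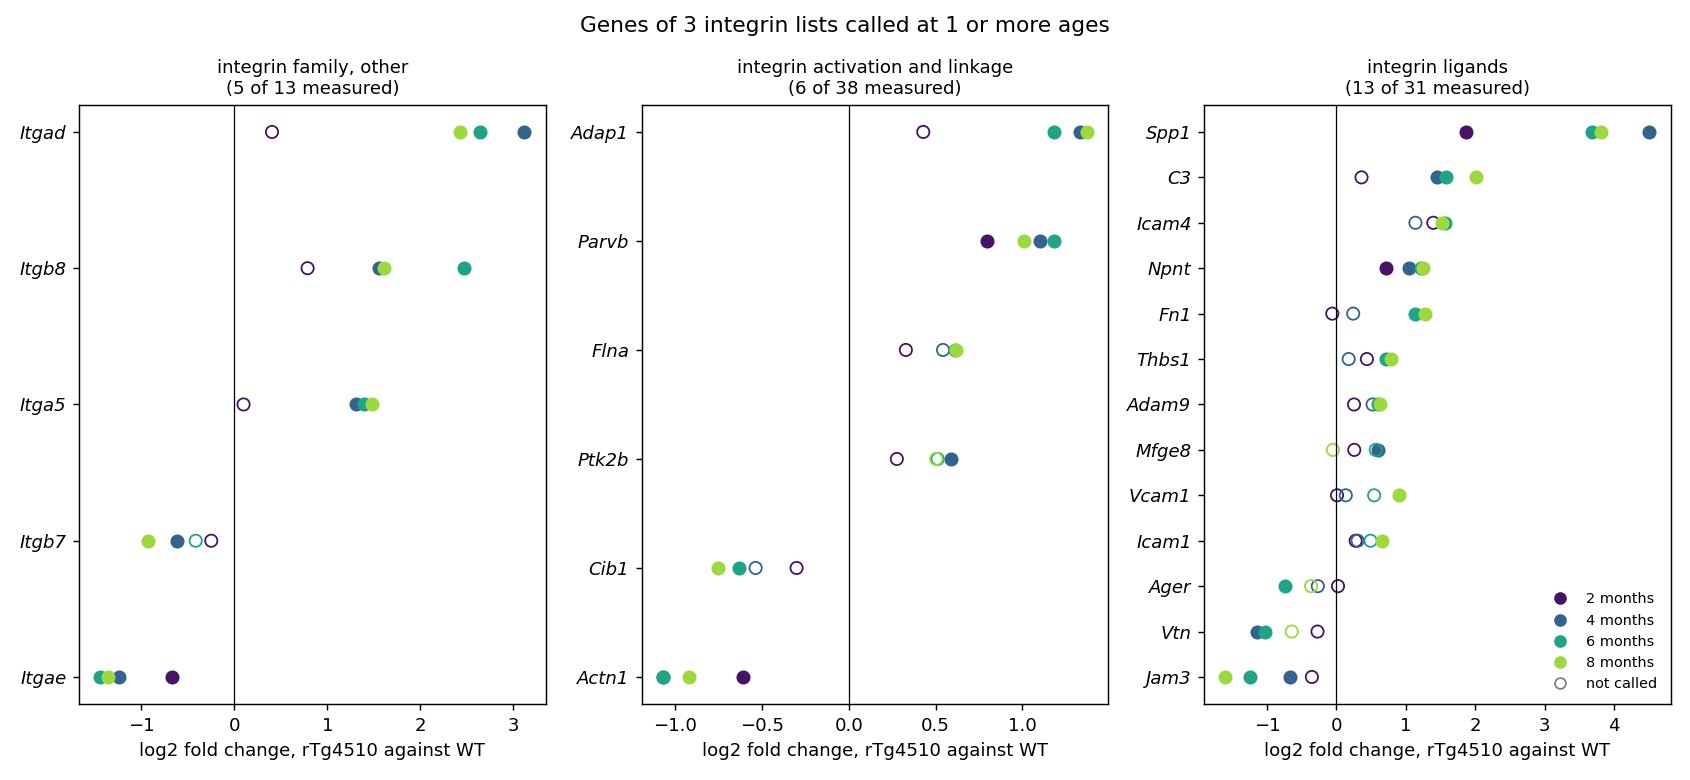
Log2 fold change of rTg4510 against WT (horizontal axis, own scale in each panel) for the genes of 3 lists called at 1 or more ages: 5 of 13 other integrins, 6 of 38 activation and linkage genes and 13 of 31 ligands. Colours mark age and open circles values not called; Spp1 reaches 4.51, and for Itgb8 at 4 months, Itgae at 8 months and Icam4 at 6 months the plotted fit is no bound.

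The label of the cells was checked against marker lists. The 10 microglia markers had a summed log2 signal of 14.5 to 15.3 over the 28 libraries, and none was near the floor in all libraries of a group. Sums of different lists are not compared, since the lists differ in genes and number. The neutrophil list, cells that also carry CD11b, was lower in rTg4510, with 0, 0, 8 and 6 of 10 markers called lower at the 4 ages and summed signals at 6 months of 9.71 to 10.7 in WT and 8.97 to 9.23 in rTg4510. Of all genes 0.403%, 4.33%, 8.54% and 5.37% were called lower at these ages. Mpo and Elane were near the floor in all rTg4510 libraries of 6 months. The neutrophil values ran beside the lower Itgam at 6 and 8 months, and the part of neutrophils in it was not tested. For dendritic cells, which carry Itgax, no marker of 7 was called higher in rTg4510 at any age. At 2, 4, 6 and 8 months 0, 2, 1 and 2 of them were called lower, and the median log2 difference was -0.28, -0.54, 0.07 and 0.16. The summed signal was lower in rTg4510 with no overlap at 2 months (8.38 to 8.63 in WT, 8.01 to 8.17 in rTg4510) and at 4 months (8.42 to 8.76, 7.87 to 8.15). It overlapped at 6 months (8.71 to 9.01, 8.10 to 8.82) and at 8 months (8.63 to 9.26, 8.41 to 8.83). The part of dendritic cells in the Itgax values was not tested. At 6 months 2 of 7 monocyte markers were called higher and 4 lower, 0 and 2 of 8 for border macrophages, 1 and 1 of 9 for T, NK and B cells, 1 and 3 of 8 for endothelial cells, 1 and 2 of 6 for astrocytes, 0 and 0 of 7 for oligodendrocytes and 0 and 1 of 3 for neurons. Of all genes 11.3% were called higher and 8.54% lower at that age.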

How the data were processed

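RNA had been taken from CD11b-captured forebrain cells and sequenced after amplification with the NuGEN Ovation kit; the reads were those of 32 libraries. Per the study's methods, the authors summed exon reads over runs, removed low exons (under 10 counts in over 80% of the libraries), summarised exons into genes with a robust linear model, took log2 and set all libraries to 1 median; the deposited values are therefore log2 signals and no counts. The labels name build GRCm38; the aligner is not given in the sources used here. Entrez IDs were matched to RefSeq symbols (17828 of 18588, 95.9%).

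The authors' linear model was refitted to the 28 kept libraries with limma 3.58.1 in R 4.3.3: 8 group means over genotype and age, variances not moderated, FDR by Benjamini-Hochberg per contrast over all 18588 genes, calls at FDR under 0.05 and more than 1.5-fold. Contrasts were rTg4510 against WT at each age, the change of that effect between successive ages, and 8 against 2 months within a genotype. The script was tested on simulated data, with 200 randomly drawn genes changed per comparison. It called 55% to 70% of log2 changes of 1 and 80% to 89% of those of 2, none with the wrong sign. A true change can therefore be missed. Labels do not say that libraries come from separate cohorts beyond the pools, so p-values measure the spread between these pools.

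The members and lists were chosen with earlier results of these data known. All 10 members are named; of the other integrins those called at 1 or more ages are named; of the linkage and ligand lists, up to 5 called at 6 months in each direction with the largest change; of genes like Itgax, the 5 highest and 3 lowest r. Beyond that rule, the neighbours of Itgax were named after their values were seen. The near-floor limit of 1.58 log2 units is the span read as 3 counts above the lowest value, an inference from the values.

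Alternatives were moderated variances, only the libraries of the age, all 32 libraries, quantile normalization, a minimum mean log2 signal of 4, an offset of 8 added to linear signals, FDR with no minimum fold, a replicate block, and leaving out each library. Replicate numbers are shared between genotypes. Within an age the deviations of same-numbered libraries had lowest and highest correlations of 0.06 and 0.17 (2 months), -0.10 and 0.12 (4 months), 0.13 and 0.15 (6 months) and 0.15 and 0.29 (8 months). By a limit of 0.1 for every pair the numbers paired the libraries at 6 and 8 months. Libraries of different number had -0.13 to 0.09 at 6 months and -0.26 to -0.03 at 8 months. Deviations of a group cancel out over its libraries, so high same-numbered correlations push those of different number down. The contrast between them is therefore no separate support for pairing. With deviations scaled by the residual SD of each gene, the lowest same-numbered correlation at 6 months was 0.095, under that limit. At 8 months it was 0.134. The pairing was read from the data and not from the labels.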

Additional observations from a re-analysis of the deposited data

Results flagged for a closer look

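Of 40 groups of 4 libraries, 2 had a library far from the other 3 by Dixon's criterion, which chance meets in about 1 of 20 groups. They were the lowest Itgb2 of rTg4510 at 2 months (replicate 1, log2 signal 7.90) and the highest Itgb1 of WT at 2 months (replicate 3, 8.85).

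The test of the difference itself called a genotype effect that differed between ages for 2 members (FDR under 0.05 and more than 1.5-fold). From 2 to 4 months the effect changed by 2.64 on the log2 scale for Itgax and by -0.62 for Itga9. Itgb2 passed by FDR alone (0.44, limma FDR = 0.0331). The Itga9 call was lost with quantile normalization, with the linear offset, with all 32 libraries and when some single libraries were left out.

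Among the libraries left out of the main fits, the rTg4510 library of 4 months had an Itgax log2 signal of 8.53 and that of 8 months 8.10, above every WT library of their age.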

How the results depend on the processing

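Over the 35 alternatives that keep the 1.5-fold limit (7 settings and 28 single libraries left out) the 40 member results between genotypes gave 1396 values, of which 1377 kept direction and call, 12 turned direction and 7 became called; no member call between genotypes was lost. Itgal had no value with the signal minimum, since its mean lay under it. The estimate of a genotype difference was the same by design when a library of another age was left out. It was also the same with moderated variances, with only the libraries of the age, with the signal minimum and with the replicate block. With all 32 libraries it was the same at 2 and 6 months. Many of the 1377 values therefore could only keep their direction. By FDR alone the called members were 2, 5, 7 and 5 at 2, 4, 6 and 8 months, 3 for 8 against 2 months in WT and 8 in rTg4510. The lowest count over the alternatives for 8 against 2 months in rTg4510 was 3, beside 4 in the main fit. For the change from 2 to 4 months the count of 2 became 1 with all 32 libraries, with quantile normalization and with the linear offset, and was 1 to 2 when single libraries were left out, while 8 against 2 months in WT gave 0 to 1; the cause was not tested. With a replicate block the genotype counts were 1, 2, 3 and 2, and the block changed no member call; within-genotype age comparisons allow no such paired fit.

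The directions that turned were all of differences not called. With quantile normalization Itgb5 was -0.0714, -0.00744 and -0.0575 at 2, 6 and 8 months, Itgb1 -0.0743 and Itga6 -0.0221 at 6 months, and with all 32 libraries Itgb1 was 0.24 at 4 months. Leaving out single libraries gave -0.0334 to 0.126 for Itgb2 and -0.0263 to 0.0744 for Itgb5 at 2 months and -0.0787 to 0.0128 for Itgb1 at 4 months. Calls gained were Itgam at 8 months (-0.61 with all 32 libraries, -0.78 with quantile normalization, -0.60 without rTg4510 replicate 3 and -0.66 without WT replicate 1), Itgal at 6 months with quantile normalization (0.63), Itga4 at 6 months without WT replicate 1 (0.65) and Itgal at 8 months without WT replicate 2 (0.70). Of 59 calls of other listed genes 6 were lost with quantile normalization, 15 with the offset, 7 with all 32 libraries and 2 with the replicate block, and none turned direction.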
